A study of Mus musculus with 6 samples.

Results

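A set of 10 genes that help to build and stabilize the sarcomere were followed in RNA sequencing (RNA-seq) of quadriceps muscle from miDrp1KO and control mice. They are the muscle kelch genes *Klhl40*, *Klhl41* and *Kbtbd13*, the leiomodins *Lmod2* and *Lmod3*, the myosin chaperone genes *Unc45b* and *Smyd1*, the Xin repeat genes *Xirp1* and *Xirp2*, and *Nrap*. They were chosen by gene symbol, and all 10 were found among the 27179 genes of the count files. The miDrp1KO mice carry floxed *Dnm1l* alleles, which encode the mitochondrial fission protein Drp1, and the HSA-MerCreMer transgene, a tamoxifen-dependent Cre driven by the human skeletal actin promoter. Control mice, labelled Control f/f, carry floxed *Dnm1l*, and according to the methods a control could be flox/+ or flox/flox. The methods state that mice of both groups received tamoxifen for 4 days at 3 months of age, and both groups ate normal chow. Muscle for the 3 control libraries (named B to D) and the 3 miDrp1KO libraries (named A, E and F) was taken 3 weeks post-*Dnm1l* deletion, and the diet groups were male according to the methods. Library values below are given in this order, B before C before D for control and A before E before F for miDrp1KO muscle. The labels give each library its own number but do not describe the animals, so p-values measure the spread between these libraries. The methods describe no Cre in the controls, so *Dnm1l* deletion and the transgene itself cannot be told apart in this comparison.

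A sarcomere is assembled from thin filaments of actin and thick filaments of myosin, and both need helper proteins to fold, reach their length and stay in place. KLHL40 and KLHL41 are BTB-kelch proteins that stabilize thin filament proteins, nebulin and leiomodin-3 for KLHL40 and nebulin for KLHL41, KBTBD13 is a substrate adaptor of the CUL3 ubiquitin ligase, and leiomodins nucleate actin and act at the pointed end of the thin filament. UNC45B works with HSP90 to fold the myosin head, and SMYD1 is a muscle methyltransferase that binds the same machinery. Xin proteins and NRAP bind actin and its partners at sites where myofibrils attach to the membrane, such as the muscle-tendon junction. Mutations in *KLHL40*, *KLHL41*, *KBTBD13* and *LMOD3* cause nemaline myopathy in humans, in which thin filament material collects in rods.

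RefSeq promoter windows (GRCm38.p6) matched 8 of the 10 genes, all but *Lmod3* and *Xirp1*. Each window runs from 250 bases before to 50 bases after the start set for that window. Among the genes printed here, this start lies inside the gene span given below for *Nrap* and *Xirp2*. Their printed bases therefore partly overlap that span. The 100 bases before that start are printed 5′ to 3′ on the strand of the gene for the 3 genes whose miDrp1KO libraries all lay below control (*Klhl41*, *Smyd1* and *Nrap*, described below) and for *Xirp2*, the most abundant member. Capitals mark matches to the MEF2 consensus, searched on both strands.
Klhl41, chr2:69670020-69670119, plus strand: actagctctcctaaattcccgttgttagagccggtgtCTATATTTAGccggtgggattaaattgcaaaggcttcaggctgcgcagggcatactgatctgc
Smyd1, chr6:71262282-71262381, minus strand: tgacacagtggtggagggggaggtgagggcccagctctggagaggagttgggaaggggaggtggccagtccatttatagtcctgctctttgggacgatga
Nrap, chr19:56390039-56390138, minus strand: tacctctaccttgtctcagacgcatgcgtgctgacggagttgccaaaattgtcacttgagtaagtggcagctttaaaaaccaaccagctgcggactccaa
Xirp2, chr2:67445902-67446001, plus strand: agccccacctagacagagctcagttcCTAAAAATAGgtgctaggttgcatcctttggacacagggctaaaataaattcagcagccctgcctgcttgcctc

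A MEF2 consensus was found in 2 of the 8 windows, those of *Klhl41* and *Xirp2*, and in 3.19% of all 32851 promoter windows in the table. The SRF consensus (the CArG box) was found in 0 of the 8 and in 1.63% of all windows, and the MCAT letters CATTCC or the reverse complement GGAATG in 0 of the 8 and in 14.7%. The E-box letters CANNTG, which read the same on both strands, were present in 7 of the 8 windows, all but *Smyd1*, and in 72.3% of all windows. The E-box matches do not overlap the MEF2 matches. The 2 genes with MEF2 letters did not share a pattern across the libraries, as *Klhl41* separated the groups and *Xirp2* did not.

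The libraries held 13989588 to 62042255 counts, and 16483 genes passed the filter on low counts, among them all 10 members. Counts on the members ran from 262 (*Kbtbd13* in control library C) to 451634 (*Xirp2* in control library D). *Dnm1l* itself was at 156, 114 and 140.3 CPM, the read count relative to the TMM-scaled library total, in control muscle and at 70.6, 81.3 and 66.2 CPM in miDrp1KO muscle, so the deleted gene was lower in every library labelled miDrp1KO (two-sided exact permutation test, p = 0.1). Its log2 fold change was −0.91 in edgeR, with an adjusted p of 0.362 in edgeR and 0.0038 in DESeq2. The edgeR fit thus did not call the deleted gene at an adjusted p of 0.05. Skeletal muscle markers were abundant in all 6 libraries, and their summed level was 121962 to 146824 CPM in control and 60192 to 113385 CPM in miDrp1KO muscle. Of the 7 markers, 6 were lower in their estimate, where 48.0% of all genes were. An unadjusted edgeR p under 0.05 was found for 2 of the 7, against 10.9% of all genes in either direction. Libraries also differed in their slow fibre markers. The 8 markers summed to 479.7 CPM in control library B and to 72.9 and 107 CPM in control libraries C and D, against 99.5, 793 and 713 CPM in miDrp1KO muscle. Adipocyte markers summed to 64.5 to 140.7 CPM in control and 24.2 to 58.0 CPM in miDrp1KO libraries, without overlap. Here 5 of 5 were lower in their estimate and 2 had an unadjusted edgeR p under 0.05, to be read against the same shares of all genes. Markers of new or regenerating fibres, most of whose sum came from *Myh8* and *Myh3*, were at 2233 to 2569 CPM in control and 506 to 1867 CPM in miDrp1KO libraries. Of the 4 tested, 3 were lower in their estimate and 1 was at this p, to be read against the same shares. The skeletal muscle, adipocyte and new fibre marker sums thus separated the groups, and their part in the values of the members was not tested. Within the new fibre sum *Myh8* separated the groups, whereas *Myh3*, *Myog*, *Chrng* and *Ncam1* each overlapped. Within the skeletal muscle sum *Myh4*, *Tnnt3*, *Acta1* and *Ryr1* separated the groups, whereas *Pvalb*, *Mylpf* and *Ckm* each overlapped. Within the adipocyte sum *Adipoq* and *Plin1* separated the groups, whereas *Lep*, *Cidec* and *Retn* each overlapped. Ribosomal RNA took 3.36 to 15.6% of the counts in control and 1.47 to 24.4% in miDrp1KO libraries. As this is bulk muscle, fewer fibres of a type and less RNA per fibre cannot be told apart.

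Divided by exon length, the members differed widely in level in control muscle. *Xirp2* was highest at 585 ± 80.0 CPM per kb (SD, n = 3), followed by *Nrap* at 417 ± 148 and *Klhl41* at 209.6 ± 20.6 CPM per kb. *Smyd1* (115 ± 7.15 CPM per kb), *Lmod2* (106 ± 99.9) and *Lmod3* (93.7 ± 43.1) came next, then *Unc45b* (45.6 ± 12.3), *Klhl40* (30.0 ± 3.67) and *Xirp1* (29.3 ± 23.1). *Kbtbd13* was lowest at 7.29 ± 1.51 CPM per kb. Neighbours in this order overlapped in their control libraries except at 3 steps, from *Nrap* to *Klhl41*, from *Klhl41* to *Smyd1* and from *Unc45b* to *Klhl40*. Control libraries agreed closely on *Smyd1*, with a coefficient of variation of 6.23%, and on *Klhl41* (9.81%), and spread most on *Lmod2* (94.3%) and *Xirp1* (79.0%).

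The comparison of miDrp1KO with control muscle asked which transcripts of this assembly machinery differed early after loss of Drp1. All 10 members had a lower estimate in miDrp1KO muscle, where 48.0% of all tested genes did, and their median log2 fold change was −0.44 against 0.02 for all tested genes. None of the 10 passed an adjusted p of 0.05 in edgeR's quasi-likelihood fit, a threshold that 0.0121% of all genes passed and that the deleted gene *Dnm1l* missed. The unadjusted p was under 0.05 for 2 of the 10, *Unc45b* and *Nrap*, both lower, against 6.22% of all genes that were lower at this p. This count was 0 in 6 of the 16 alternative fits (upper quartile scaling, a minimum of 10 counts per library, a covariate for the share of ribosomal RNA, and without control library D, miDrp1KO library E or miDrp1KO library F) and at most 4 (without miDrp1KO library A). The share of all genes at this p in either direction moved too, from 10.9% with all libraries to 17.5% without miDrp1KO library A. In the 6 fits with a count of 0 it was, in the order given, 11.1, 11.4, 9.2, 5.36, 7.18 and 7.79%. In 3 of the 10, *Klhl41*, *Smyd1* and *Nrap*, every miDrp1KO library lay below every control library, against 10.3% of all genes, and 0 of the 10 lay above, against 7.67%. With DESeq2, 3 of the 10 (*Klhl41*, *Unc45b* and *Nrap*) were lower at an unadjusted p under 0.05, against 5.64% of all genes lower at this p, with limma voom 1 (*Nrap*) was, against 6.86% lower, and neither called a member after adjustment. DESeq2 gave no adjusted p to *Kbtbd13*, and it called 2.34% of the genes to which it gave an adjusted p.

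**Figure D1:**
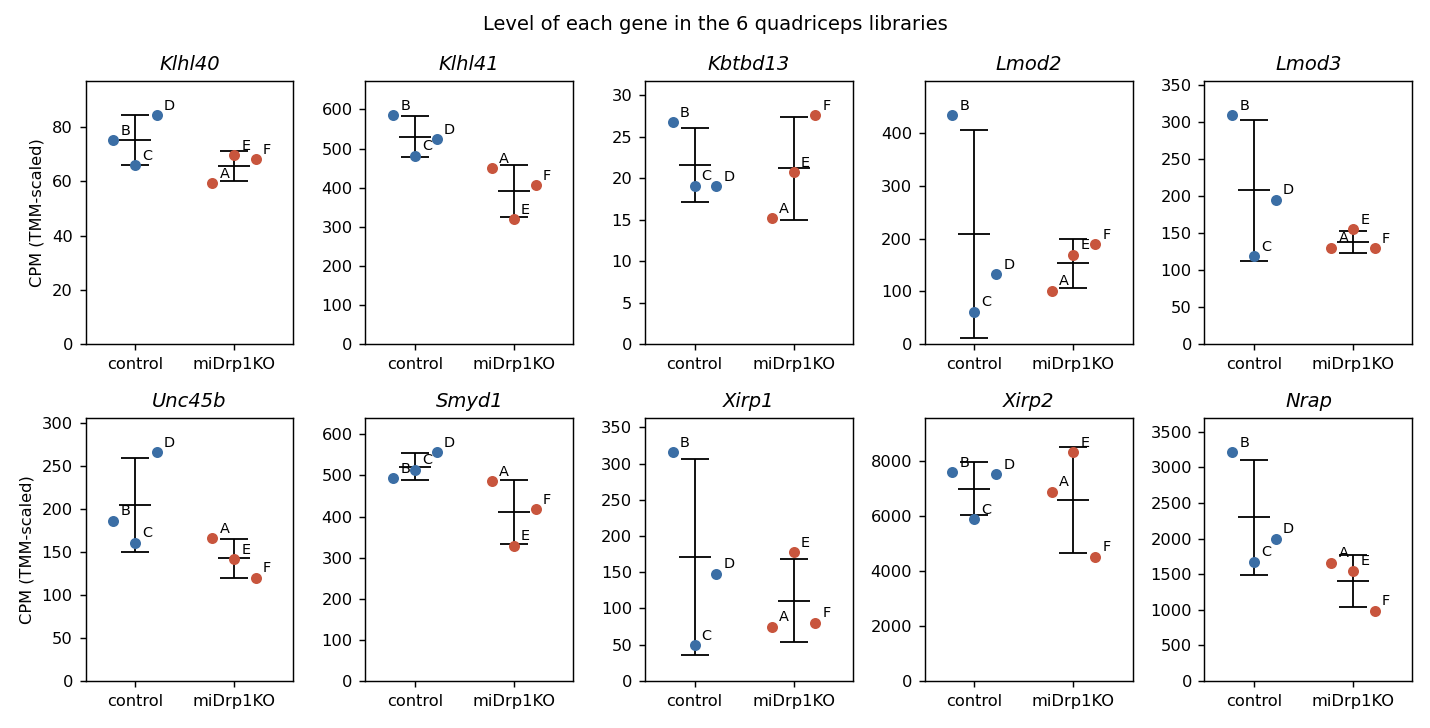
Level of each gene in CPM (vertical axes from 0) in the 3 control and 3 miDrp1KO libraries, with letters naming libraries and black bars giving the mean ± SD. Only *Klhl41*, *Smyd1* and *Nrap* show 3 miDrp1KO points below all 3 control points, and control library B stands far above C and D for *Lmod2* and *Xirp1*.

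The count of lower estimates depended on control library B, which held the highest level of 5 of the 10 members (*Klhl41*, *Lmod2*, *Lmod3*, *Xirp1* and *Nrap*). Without it, 7 of the 10 were lower, where 43.9% of all genes were, and the median log2 fold change was −0.17. Across the members, the median distance from the control mean on the log2 CPM scale was 0.24, −0.28 and 0.06 in control muscle and −0.37, −0.21 and −0.48 in miDrp1KO muscle. Control library C thus lay within the range of the miDrp1KO libraries. No single library was lowest throughout, as C and F were each lowest for 3 members and A and E for 2 each.

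**Figure D2:**
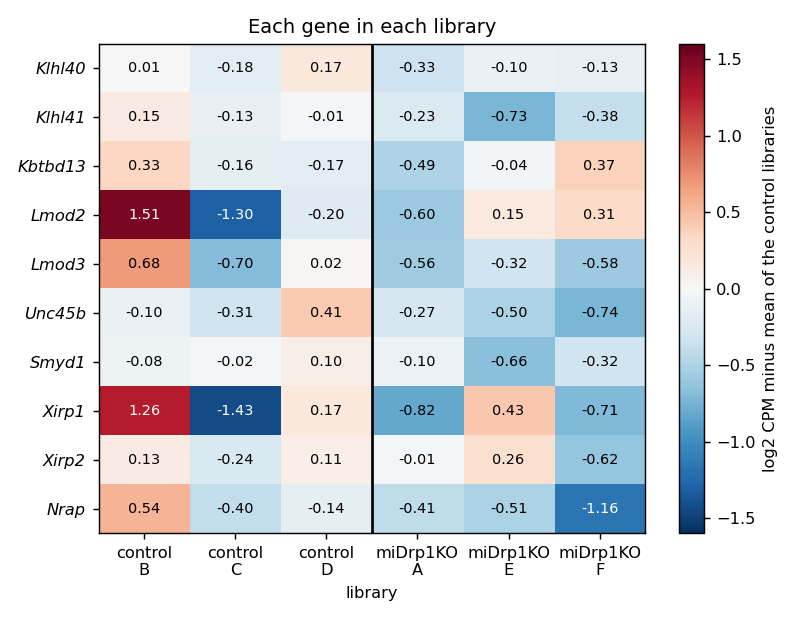
Log2 CPM of each gene in each library minus the mean of the control libraries (colour scale in log2 units, control libraries left of the line). *Lmod2* and *Xirp1* range from 1.51 and 1.26 in control library B to −1.30 and −1.43 in control library C, a wider span than between the groups, whereas *Klhl41* and *Smyd1* stay close to 0 in all control libraries and reach −0.73 and −0.66 in miDrp1KO library E.

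Among the kelch genes, *Klhl41* (Entrez 228003, chromosome 2 of GRCm38, 69670120 to 69684239, plus strand) was the only one whose groups did not overlap. It was at 585, 481 and 524 CPM in control muscle and at 451, 319 and 407 CPM in miDrp1KO muscle. All miDrp1KO libraries lay below all control libraries, with means of 530.1 ± 52.0 CPM in control and 392 ± 66.9 CPM in miDrp1KO muscle (SD, n = 3). An exact permutation test, two-sided, gave p = 0.1, which is the lowest value possible with 3 libraries in each group. On the log2 scale the difference was −0.43 (standard error 0.21, edgeR adjusted p = 0.480). It ran from −0.52 to −0.31 over 16 alternatives, with adjusted p from 0.232 to 0.884.

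*Klhl40* (Entrez 72330, chromosome 9, 121777499 to 121791200, plus strand), whose protein also binds nebulin, was at 75.1, 66.0 and 84.3 CPM in control muscle and at 59.4, 69.7 and 68.1 CPM in miDrp1KO muscle. Control library C lay below 2 of the 3 miDrp1KO libraries. The difference was within the spread of these libraries, with means of 75.1 ± 9.17 and 65.8 ± 5.56 CPM (SD, n = 3; two-sided exact permutation test, p = 0.3), and the log2 fold change was −0.19 (standard error 0.17, edgeR adjusted p = 0.701). It was −0.08 without control library D, −0.10 without miDrp1KO library A and −0.30 without control library C. *Klhl40* shares 540 exon bases with a transcript of the opposite strand, Gm47108, which was not analysed here.

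*Kbtbd13* (Entrez 74492, chromosome 9, 65388684 to 65391652, minus strand) was at 26.8, 19.1 and 19.0 CPM in control and at 15.2, 20.8 and 27.6 CPM in miDrp1KO muscle. The miDrp1KO libraries hold both its lowest and its highest value. Its log2 fold change of −0.03 (standard error 0.23, edgeR adjusted p = 0.976) turned positive in 5 of 16 alternatives, among them the fits without control library B (0.17) and without miDrp1KO library A (0.18). Under upper quartile scaling and without ribosomal RNA genes it turned positive (0.07 and 0.01) but stayed below the median of all genes, which these settings raised to 0.11 and 0.06. Its lowest value was −0.29, with the slow fibre covariate.

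The leiomodins varied more among the control libraries than between the groups. *Lmod2* (Entrez 93677, chromosome 6, 24597771 to 24605414, plus strand), the leiomodin best known from the heart, was at 434, 61.9 and 133 CPM in control muscle, a 7.01-fold range, and at 101.1, 170.0 and 189 CPM in miDrp1KO muscle. All 3 miDrp1KO libraries lay inside the control range (two-sided exact permutation test, p = 0.9). The log2 fold change of −0.45 (standard error 0.78, edgeR adjusted p = 0.871) rested on control library B, without which it was 0.67 (edgeR adjusted p = 0.616), and ran from 0.67 to −0.90 over all alternatives.

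*Lmod3* (Entrez 320502, chromosome 6, 97238530 to 97253217, minus strand) encodes the leiomodin that KLHL40 stabilizes. Its level was 309, 119 and 195 CPM in control muscle and 130.4, 155 and 129 CPM in miDrp1KO muscle. The miDrp1KO libraries were close together (138 ± 14.5 CPM against 208 ± 95.5 CPM in control, SD, n = 3) and all above control library C (exact permutation test, two-sided, p = 0.4). Its log2 fold change was −0.59 (standard error 0.30, edgeR adjusted p = 0.519), and was −0.17 without control library B and −0.89 without control library C.

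Both leiomodins and *Xirp1* were highest in control library B, where slow fibre markers were higher than in the other 2 control libraries. The 3 libraries with the highest *Lmod2* (B, F and E) were the 3 with the highest slow fibre sum, and the 3 with the lowest *Lmod2* (C, A and D, in rising order) followed the same order for slow fibre markers. Slow fibre markers were not alone in this, as sums of heart, Schwann cell and blood markers were also highest in B, E and F. Heart markers summed to 32.8, 6.70 and 11.7 CPM in control and to 7.49, 48.9 and 26.3 CPM in miDrp1KO muscle. Most of the heart sum came from *Myh6* in every library. *Myh6* and *Tnnt2* were each highest in B, E and F. The other heart markers, *Nppa* and *Tnni3*, were low in all libraries and did not follow this, as *Nppa* was highest in A and *Tnni3* was lowest in F and B. The part of the slow fibre, heart, Schwann cell and blood marker sums in the level of *Lmod2* was not tested. At 713 and 793 CPM of slow fibre markers, miDrp1KO libraries F and E held 189 and 170.0 CPM of *Lmod2*, against 434 CPM at 479.7 CPM of slow fibre markers in control library B. *Lmod3* was not high in E and F, and *Xirp1* did not follow the order either, as library F held 80.4 CPM of *Xirp1* against 148 CPM in control library D, where slow fibre markers were at 107 CPM. When the slow fibre markers entered the edgeR fit as a covariate, the log2 fold changes were −0.74 for *Lmod2*, −0.75 for *Lmod3*, −0.96 for *Xirp1* and −0.29 for *Kbtbd13*. They were −0.27 for *Klhl40*, −0.12 for *Xirp2* and −0.75 for *Nrap*. For *Klhl41* (−0.41), *Unc45b* (−0.46) and *Smyd1* (−0.25) the decline was smaller than without the covariate, and the unadjusted edgeR p of *Unc45b* was 0.066. In that fit 2 of the 10 members, *Lmod3* and *Nrap*, had an unadjusted p under 0.05 in edgeR, against 5.75% of all genes that were lower at this p, and none passed after adjustment.

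**Figure D3:**
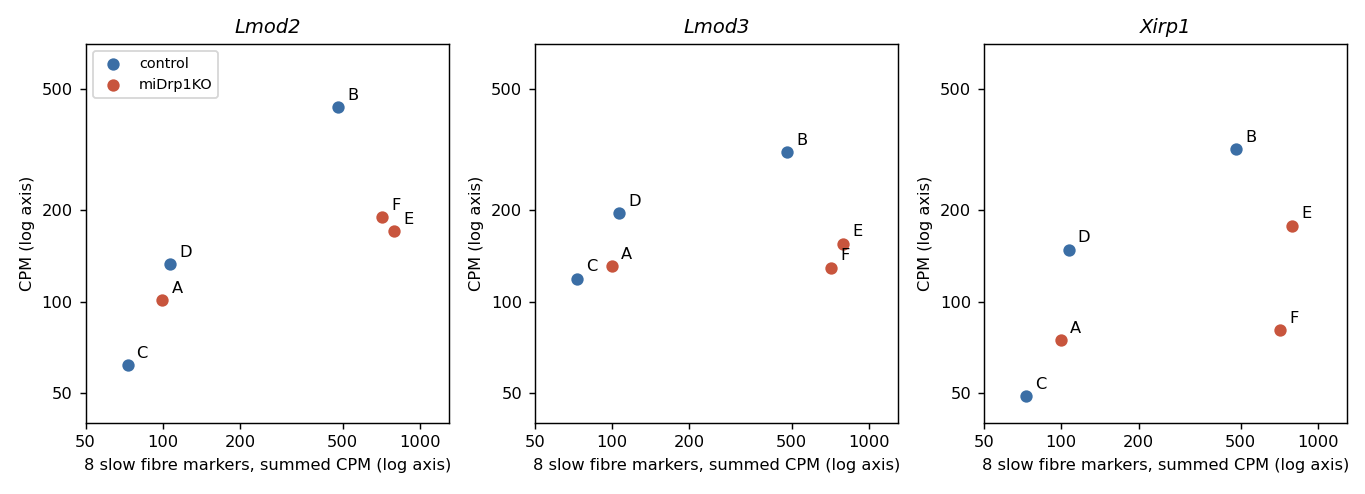
Level of *Lmod2*, *Lmod3* and *Xirp1* (vertical, CPM, log axis) against the summed CPM of 8 slow fibre markers (horizontal, log axis), 1 point per library, blue for control and red for miDrp1KO. Control library B is highest on the vertical axis in all 3 panels, and libraries E and F, which have the most slow fibre marker counts, lie below it.

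Both myosin chaperone genes were lower on average in miDrp1KO muscle. *Smyd1* (Entrez 12180, chromosome 6, 71213940 to 71262281, minus strand) was at 493, 514 and 557 CPM in control muscle, a narrow range, and at 486, 329 and 418 CPM in miDrp1KO muscle. The groups did not overlap, but library A was close to control library B (exact permutation test, two-sided, p = 0.1, again the lowest value possible). The means were 521 ± 32.5 and 411 ± 79.0 CPM (SD, n = 3), and the log2 difference between the groups was −0.34 (standard error 0.21, edgeR adjusted p = 0.575). It was −0.21 without miDrp1KO library E and −0.46 without miDrp1KO library A.

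*Unc45b* (Entrez 217012, chromosome 11, 82911253 to 82943406, plus strand) was at 187, 161 and 267 CPM in control muscle and at 166, 141 and 120.1 CPM in miDrp1KO muscle. Library A lay just above control library C, so the groups overlapped (205 ± 55.1 against 143 ± 23.1 CPM, SD, n = 3; two-sided exact permutation test, p = 0.2). Its log2 fold change was −0.52 (standard error 0.22, edgeR adjusted p = 0.438), and −0.27 without control library D, where *Unc45b* was highest. The gene shares 255 and 151 exon bases with the opposite-strand transcripts Unc45bos and Slfn5os, which were not analysed here, and the sources used here do not state whether counting used the strand.

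*Nrap* (Entrez 18175, chromosome 19, 56320037 to 56390062, minus strand), the nebulin-related anchoring protein, had the lowest log2 fold change of the 10 in edgeR with all 6 libraries and no covariate, but not without control library B or C or miDrp1KO library E or F, where *Unc45b*, *Xirp1*, *Xirp1* and *Lmod2* were lowest in this order. Its level was 3216, 1675 and 1999.7 CPM in control muscle and 1664, 1552 and 985 CPM in miDrp1KO muscle. The groups did not overlap, though library A and control library C were nearly equal (exact permutation test, two-sided, p = 0.1, again the lowest value possible). The miDrp1KO mean was 61.0% of the control mean, at 1400.1 ± 364 against 2297 ± 813 CPM (SD, n = 3). Its log2 fold change was −0.71 (standard error 0.31, edgeR adjusted p = 0.443). It was −0.37 without control library B and −0.92 without control library C, and its adjusted p ran from 0.153 under DESeq2 to 0.877. *Nrap* shares 268 exon bases with *Habp2* on the opposite strand, to which 268 counts were assigned over all 6 libraries together, against 20528 to 120053 counts per library for *Nrap*.

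The Xin repeat genes showed no shift that exceeded the spread between libraries. *Xirp1* (Entrez 22437, chromosome 9, 120013755 to 120023598, minus strand) was at 316, 48.9 and 148 CPM in control muscle and at 74.7, 178 and 80.4 CPM in miDrp1KO muscle. All 3 miDrp1KO libraries lay inside the control range (two-sided exact permutation test, p = 0.7). The log2 fold change of −0.62 (standard error 0.77, edgeR adjusted p = 0.810) was 0.19 without control library B and −1.15 without miDrp1KO library E. Markers of the muscle-tendon junction, where Xin proteins reside, summed to 25.2 to 71.0 CPM in control and 35.5 to 79.1 CPM in miDrp1KO libraries.

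*Xirp2* (Entrez 241431, chromosome 2, 67446000 to 67526620, plus strand) was at 7595, 5899 and 7523 CPM in control muscle and at 6891, 8336 and 4524 CPM in miDrp1KO muscle. The highest and the lowest library were both miDrp1KO, and the means were 7006 ± 959 and 6584 ± 1924 CPM (SD, n = 3; two-sided exact permutation test, p = 0.8). The log2 fold change of −0.09 (standard error 0.31, edgeR adjusted p = 0.943) was 0.14 without miDrp1KO library F.

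**Figure D4:**
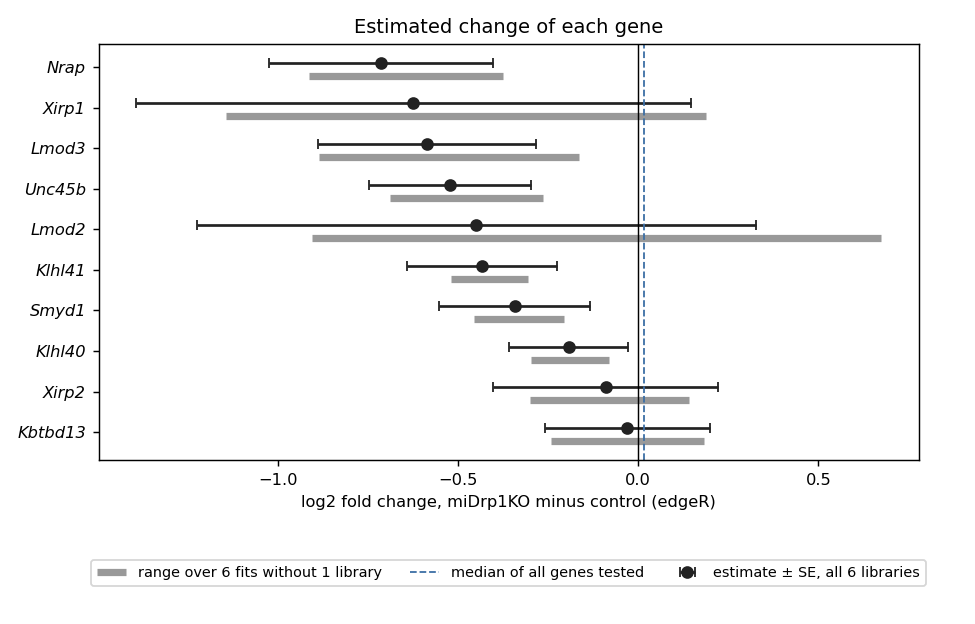
Log2 fold change of each gene (miDrp1KO minus control, horizontal axis) with its standard error (black) and the range over the 6 fits that each left out 1 library (grey), the dashed line marking the median of all tested genes. The 10 estimates lie below 0, and the grey ranges of *Lmod2*, *Xirp1*, *Xirp2* and *Kbtbd13* cross it.

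A ratio of 2 genes within a library does not depend on how libraries are scaled, so 4 pairs were compared in this way. The log2 ratio of *Klhl40* to *Klhl41* counts was −2.96, −2.87 and −2.64 in control muscle and −2.92, −2.19 and −2.58 in miDrp1KO muscle. The mean was higher by 0.26 in miDrp1KO muscle, and the groups overlapped (two-sided exact permutation test, p = 0.3, adjusted p = 0.8 over the 4 pairs). That difference was 0.07 without miDrp1KO library E and 0.43 without miDrp1KO library A. The log2 ratio of *Lmod2* to *Lmod3* was 0.49, −0.94 and −0.55 in control and −0.37, 0.14 and 0.55 in miDrp1KO libraries, a difference of 0.44 (two-sided exact permutation test, p = 0.4, adjusted p = 0.8), which was 0.14 without control library C and 0.85 without control library B. The ratios of *Xirp1* to *Xirp2* and of *Smyd1* to *Unc45b* differed by −0.24 and 0.14, both with overlapping groups (two-sided exact permutation tests, p = 0.9 and 0.6, adjusted p = 0.9 and 0.8). Both directions turned when 1 library was left out. The *Xirp1* to *Xirp2* difference was 0.33 without control library B and 0.04 without miDrp1KO library A. The *Smyd1* to *Unc45b* difference was −0.017 without control library D. No pair separated the groups.

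**Figure D5:**
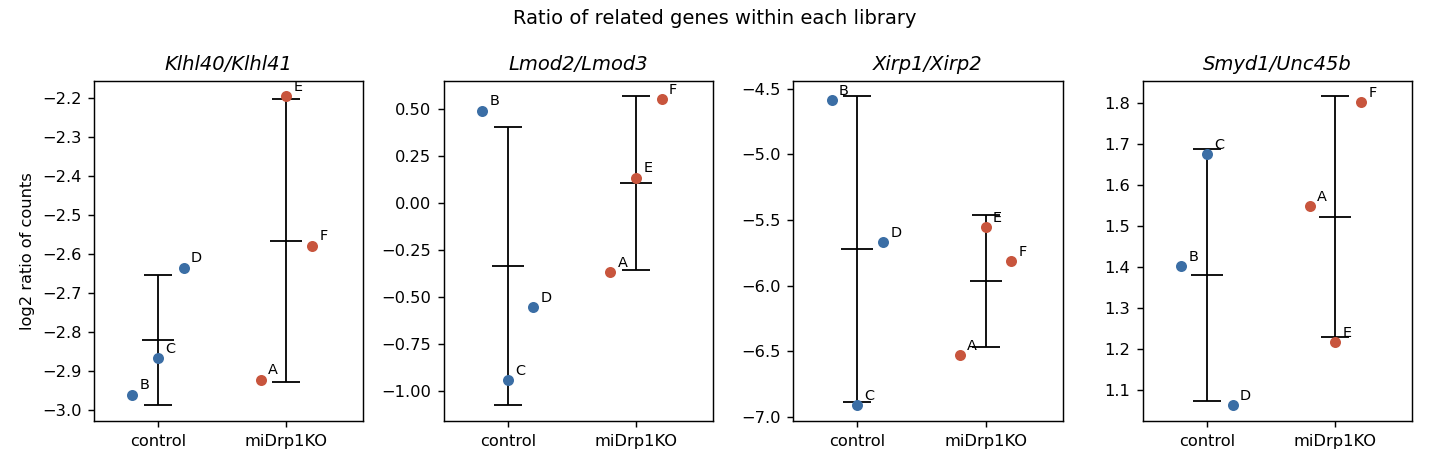
Log2 ratio of the counts of 2 related genes in each library (vertical axes differ between panels), with the mean ± SD of each group in black. In all 4 panels the control and miDrp1KO libraries overlap.

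The genes around these members were described from 5 further lists, none of which held a gene called after adjustment in edgeR or limma voom. DESeq2 called 1 gene in the thick filament list, *Myom2*, 1 among the partners of Xin proteins and NRAP, *Tln2*, and 0 in the other lists. Among all genes to which it gave an adjusted p, it called 2.34%. Of 29 genes of myosin folding and the thick filament, 23 had a lower estimate, where 48.0% of all genes did, with a median log2 fold change of −0.36, and 9 were lower and 0 higher at an unadjusted p under 0.05, against 6.22 and 4.68% of all genes. They include *Hsp90ab1*, the HSP90 isoform that all cells use, at 951 ± 114 CPM in control and 615 ± 126 CPM in miDrp1KO muscle (SD, n = 3, log2 fold change −0.63, edgeR adjusted p = 0.392). *Myom2*, an M-band protein (log2 fold change −1.11, edgeR adjusted p = 0.392), and *Trim54*, a muscle RING finger protein (−0.55, edgeR adjusted p = 0.392), had lower p-values than *Hsp90ab1*.

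Of 26 genes of the thin filament and its ends, 16 had a lower estimate (median −0.30) where 48.0% of all genes did, and 3 were lower and 0 higher at an unadjusted p under 0.05, against 6.22 and 4.68% of all genes. These were *Fhod3*, a formin (log2 fold change −0.64), *Tmod1*, which caps the pointed end where leiomodins act (−0.53), and *Capzb*, which caps the barbed end (−0.48). The adjusted p from edgeR was 0.382, 0.389 and 0.450 in this order. Of 25 partners of Xin proteins and NRAP, 20 had a lower estimate (median −0.19), and 6 were lower and 0 higher at this p, to be read against the same shares. *Cdh15*, muscle cadherin, had the lowest p (log2 fold change −0.76), followed by *Tln2*, a talin (−0.92), and *Actn3*, the fast fibre actinin (−0.95), with edgeR adjusted p of 0.362, 0.362 and 0.407.

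Of 25 kelch, BTB and CUL3 ligase genes other than the members, 15 had a lower and 10 a higher estimate, with a median log2 fold change of −0.02, where 48.0% of all genes were lower. In this list 1 gene, *Klhl33*, was lower at an unadjusted p under 0.05 (log2 fold change −0.41, edgeR adjusted p = 0.393) and 0 were higher, against 6.22 and 4.68% of all genes, so the list did not exceed the background at this p. Of 18 tested genes among regulators that act through SRF and MEF2, 13 had a lower estimate (median −0.19), and 3 were lower and 0 higher at this p, against the same shares of all genes. They were *Srf* itself, at 93.7 ± 4.04 CPM in control and 61.9 ± 9.43 CPM in miDrp1KO muscle (SD, n = 3, log2 fold change −0.60, edgeR adjusted p = 0.368), the histone deacetylase *Hdac4* (−0.78, edgeR adjusted p = 0.379) and *Mef2d* (−0.62, edgeR adjusted p = 0.407). The marker sums given above differed between the same libraries, and their part in the values of these lists was not tested.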

How the data were processed

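RNA-seq of quadriceps muscle was analysed in 3 control and 3 miDrp1KO libraries. The paper gives 3 mice per group for these data, read here as 1 library per mouse, which the labels do not state. The authors deposited raw counts per gene, without normalization. According to the methods, total RNA was depleted of ribosomal RNA, sequenced in 2 pools, aligned to GRCm38 and counted with Rsubread. Which library was in which pool, and how overlapping genes were counted, is not given in the sources used here. Groups were taken from the genotype labels. Counts were analysed in R 4.3.3 with edgeR 4.0.16 (TMM, filterByExpr, quasi-likelihood test with robust dispersion, p adjusted by Benjamini-Hochberg over 16483 genes, threshold 0.05), and the method was tested on simulated data. Standard errors are the log2 fold change divided by the root of the F statistic. CPM were computed with TMM library sizes, and exon lengths came from GENCODE M21 (GRCm38). Single values and log2 ratios (1 count added) were compared by two-sided exact permutation tests. Alternatives were DESeq2 1.42.0, limma voom (3.58.1), other normalizations and filters, covariates, a length and GC correction (14833 genes, 90.0%), and leaving out each library. All members, *Dnm1l*, single marker genes and at most 3 genes per list with the lowest p under 0.05 were named. The members and lists were chosen with earlier results of these data known. Each group has 3 libraries, and each member has 262 counts or more in every library.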

Additional observations from a re-analysis of the deposited data

How the results depend on the processing

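In all 16 fits with another tool, normalization, filter, covariate, correction or set of libraries, 0 of the 10 members passed an adjusted p of 0.05, though DESeq2 gave *Kbtbd13* no adjusted p. At an unadjusted p under 0.05 there were 2 in edgeR, a count that ran from 0 (6 of the 16 fits) to 4, while 5.36% (without control library D) to 17.5% (without miDrp1KO library A) of all genes had this p. *Klhl40*, *Klhl41*, *Lmod3*, *Unc45b*, *Smyd1* and *Nrap* kept a negative log2 fold change in all 16. *Kbtbd13* turned positive under upper quartile scaling (0.066), where the median over all tested genes was 0.11, under a minimum of 10 counts per library (0.016), after removal of ribosomal RNA genes and *Lars2* (0.013), and without miDrp1KO library A or control library B. Over the 6 fits that each left out 1 library, *Kbtbd13* ran from −0.24 to 0.18, *Lmod2* from −0.90 to 0.67, *Xirp1* from −1.15 to 0.19 and *Xirp2* from −0.30 to 0.14. *Kbtbd13* was positive in 2 of the 6, and each of the other 3 in 1. The members' median was lowest without control library C (−0.60) and highest without control library B (−0.17). The number of lower members was 7 without control replicate B and 9 or 10 otherwise. The differences in log2 ratio, left-out libraries added after seeing the data, ran from 0.07 to 0.43 for *Klhl40* to *Klhl41*, from 0.14 to 0.85 for *Lmod2* to *Lmod3*, from −0.84 to 0.33 for *Xirp1* to *Xirp2*, also positive without miDrp1KO replicate A (0.039), and from −0.017 to 0.29 for *Smyd1* to *Unc45b*. Among all genes, 2 passed with edgeR, 94 with DESeq2, 1 with limma voom, 8 without a filter, 4 with the slow fibre score and 1796 without adjustment, and 1 to 7 with 1 library left out, 7 being without miDrp1KO replicate A and 1 without E or F. No paired analysis was possible because the labels do not pair control with miDrp1KO libraries. The cause of these shifts was not tested.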
